A study of Mus musculus with 14 samples.

Results

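Aquaporins are membrane channels for water, and some of them also pass glycerol. The 7 described here are the family members that the mouse kidney is known for: Aqp1, Aqp2, Aqp3, Aqp4, Aqp6, Aqp7 and Aqp11. They were taken by gene symbol, whatever their values, from the 23286 genes listed in both deposited tables, and every member was found in both and passed the filter on low values in every comparison. Their mRNA was measured by RNA-seq of bulk kidney tissue from mice of 9 weeks, taken 5 h after ischemia-reperfusion (IR) injury, in which blood flow is stopped and restored, or after sham surgery. The 12 libraries form 4 groups of 3: VE-PTPiKO IR, VE-PTPiKO sham, Control IR and Control sham. VE-PTPiKO is the genotype that targets VE-PTP, the endothelial phosphatase encoded by Ptprb, and Control is the genotype it is set against. The strain, the Cre line with its promoter and any agent shared by the groups are not given in the sources used here, nor is it said that the libraries of a group come from separate animals. The p-values therefore measure only the spread between these libraries.

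In the proximal tubule and the thin descending limb, Aqp1 carries the bulk of water reabsorption. In the collecting duct, vasopressin acts through its V2 receptor and cAMP to place Aqp2 in the apical membrane of principal cells and to raise Aqp2 transcription, and water then leaves the cell through Aqp3 and Aqp4 in the basolateral membrane. Aqp6 lies in vesicles of intercalated cells, Aqp7 passes glycerol and water in the brush border of the S3 proximal tubule, and Aqp11 lies in the endoplasmic reticulum of proximal tubule cells. In rodent models with longer reperfusion, kidney ischemia is known to lower several of these channels.

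No aquaporin passed the test 5 h after injury in either genotype. In limma with Benjamini-Hochberg adjustment over all genes tested, 0 of 7 were called between VE-PTPiKO IR and VE-PTPiKO sham, where 2.71% of all genes were called, and 0 of 7 between Control IR and Control sham, where 11.5% were called. The fitted log2 fold changes lay between -0.44 and 0.17 in VE-PTPiKO and between -0.34 and 0.32 in Control. At an unadjusted p under 0.05 there was 1 aquaporin in each comparison, Aqp11 in VE-PTPiKO and Aqp7 in Control, against 15.2% and 24.2% of all genes. edgeR and DESeq2 also called 0 of 7 in both comparisons. The libraries of IR and sham did not overlap for 2 of 7 in VE-PTPiKO, Aqp6 and Aqp11, against 20.6% of all genes, and for 1 of 7 in Control, Aqp7, against 29.4%. The authors' deposited table marked none of the 7 as changed, and it marked 11.3% of genes with an adjusted p in VE-PTPiKO and 21.1% in Control.

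**Figure D1:**
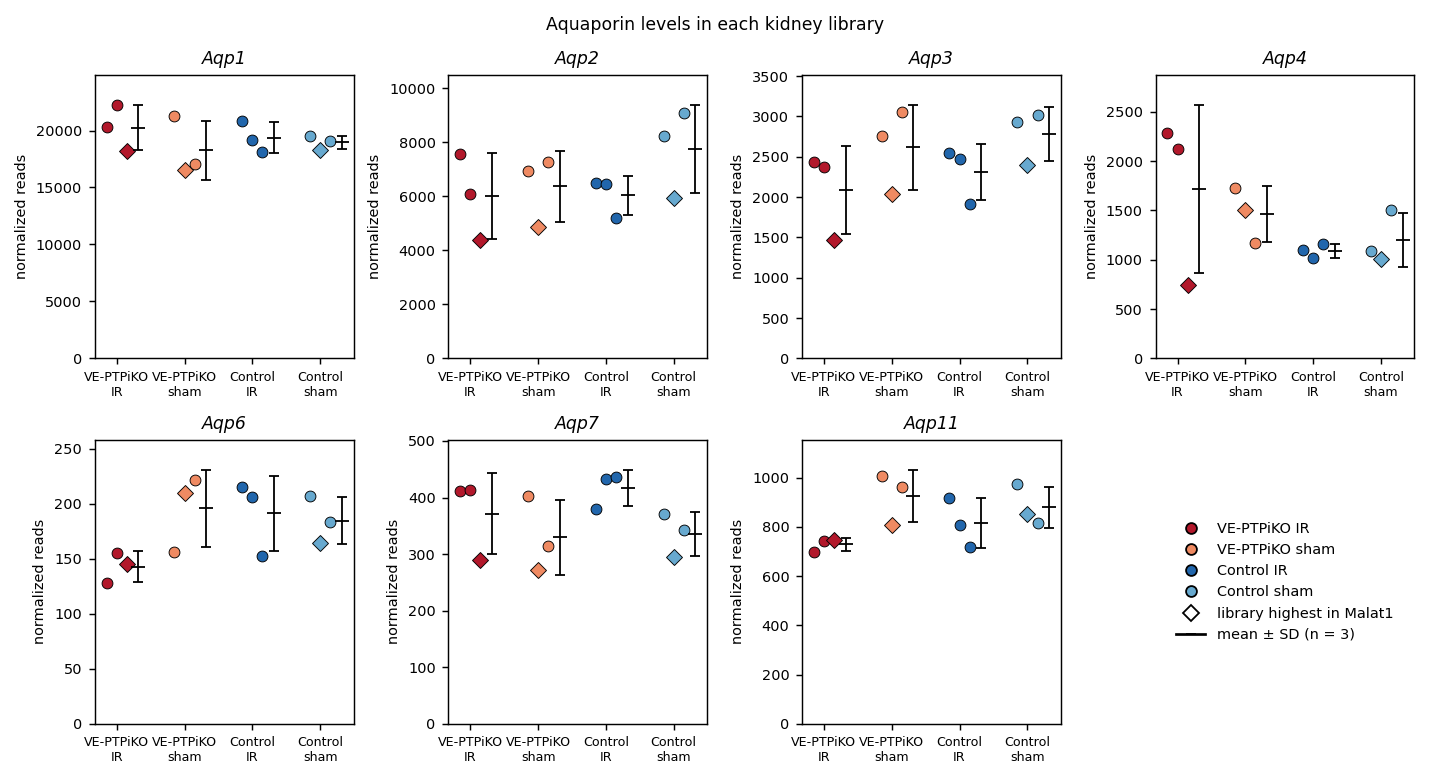
Normalized reads of each aquaporin (linear axis from 0) in the 12 libraries, as points for VE-PTPiKO IR, VE-PTPiKO sham, Control IR and Control sham, with the mean ± SD of 3 libraries beside them and diamonds for the 3 libraries highest in Malat1. Most groups overlap, and Aqp4 in VE-PTPiKO IR spans 742 to 2291 reads.

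The libraries held 15427887 to 21296392 assigned reads. In 3 of them the nuclear RNA Malat1 took a larger share: 1.96% of reads in VE-PTPiKO IR replicate 3, 1.15% in VE-PTPiKO sham replicate 2 and 1.02% in Control sham replicate 2, against 0.327% to 0.564% in the other 9. Ptprb, the targeted gene, averaged 1702 ± 401 normalized reads in VE-PTPiKO IR, against 2305 ± 364 in Control IR. After sham surgery it averaged 2656 ± 519 in VE-PTPiKO and 3564 ± 699 in Control (SD, n = 3 each, here and below). Neither of these genotype differences passed the test (log2 fold changes -0.45 and -0.43), and the deposited symbol does not show which exons were targeted. The injury marker Havcr1 averaged 312 ± 143 normalized reads in VE-PTPiKO IR and 49.0 ± 9.23 in VE-PTPiKO sham, and 267 ± 55.1 in Control IR and 60.1 ± 4.58 in Control sham, a rise past the threshold in both genotypes (log2 2.56 and 2.12). The labels name no batch. A normalized read is a read count divided by a size factor computed over all 12 libraries. In whole kidneys, fewer cells of a type and less RNA per cell cannot be told apart.

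Levels of different genes were compared per kilobase of transcript and relative to all assigned reads of the library (FPKM). Aqp1 was highest in every group, with a mean of 444 ± 32.8 FPKM in VE-PTPiKO IR, 387 ± 62.7 in VE-PTPiKO sham, 416 ± 16.4 in Control IR and 398 ± 8.12 in Control sham. Aqp2 followed with means between 240 FPKM in Control IR and 301 FPKM in Control sham, and Aqp3 with means between 68.1 FPKM in VE-PTPiKO IR and 86.9 FPKM in Control sham. The libraries of these 3 genes did not overlap one another within any group. Aqp4 (means 12.2 to 19.5 FPKM) and Aqp11 (means 11.3 to 13.8 FPKM) overlapped in all 4 groups, so their order was not resolved. Aqp7 (single libraries 6.12 to 10.1 FPKM) and Aqp6 (single libraries 3.54 to 5.80 FPKM) were the lowest. They did not overlap each other or Aqp11 in any group, but Aqp7 overlapped Aqp4 in VE-PTPiKO IR, where Aqp4 ran from 8.73 to 25.9 FPKM. With the union of all annotated exons as the length, Aqp7 stood above Aqp11 in every group, because the annotated exons of Aqp11 add up to 9418 bases against 3737 in its principal transcript. The 7 genes together took 0.149% to 0.194% of the assigned reads of a library, and Aqp1 made up between 45.03% and 60.9% of their summed FPKM.

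Aqp1 (chr6:55336298-55348555, plus strand, GRCm38, the mm10 assembly, GENCODE M21 annotation) had 20328, 22208 and 18225 normalized reads in VE-PTPiKO IR, against 21259, 16518 and 17045 in VE-PTPiKO sham. It had 20812, 19199 and 18121 in Control IR, against 19496, 18327 and 19068 in Control sham. The groups overlapped in both genotypes. The fitted log2 fold change was 0.15 in VE-PTPiKO (SE 0.16, 95% interval -0.22 to 0.53, adjusted p = 0.731). In Control it was 0.03 (SE 0.12, 95% interval -0.22 to 0.29, adjusted p = 0.907), so that changes in Control beyond a fold of 0.856 or 1.22 lay outside the interval. Aqp1 is also present in red blood cells and in the endothelium of the descending vasa recta. The summed level of 7 red blood cell markers was 133 to 563 CPM (reads scaled to the same number of assigned reads) in VE-PTPiKO IR and 85.8 to 152 CPM in VE-PTPiKO sham, and 334 to 607 CPM in Control IR and 75.6 to 185 CPM in Control sham. In Control 4 of 6 tested red blood cell markers rose and in VE-PTPiKO 0 of 6, where 7.48% and 1.92% of all genes rose. Their part in the Aqp1 level was not tested. Of the S1 and S2 proximal tubule markers, 0 of 8 were called in VE-PTPiKO and 0 of 8 in Control, with list medians of -0.27 and -0.02 on the log2 scale, against -0.01 for all genes in each comparison.

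Aqp7 lies with Aqp3 in a 65.1 kb stretch of chromosome 4 (Aqp7 chr4:41033073-41048136 and Aqp3 chr4:41092723-41098183, both on the minus strand). It had 411, 413 and 289 normalized reads in VE-PTPiKO IR, against 402, 272 and 315 in VE-PTPiKO sham. In Control IR it had 380, 433 and 437, against 371, 294 and 343 in Control sham. Every Control IR library was above every Control sham library, as for 16% of all genes in that direction, while the VE-PTPiKO groups overlapped. The log2 fold change was 0.17 in VE-PTPiKO (SE 0.21, adjusted p = 0.774) and 0.32 in Control (SE 0.14, 95% interval 0.01 to 0.62, unadjusted p = 0.0417, adjusted p = 0.184). Aqp7 is also the glycerol channel of fat cells. Of 8 adipocyte markers none was at 0 in a whole group, but several were low: Adipoq ran from 0.296 to 3.30 CPM over the 12 libraries. Plin1 reached at most 2.51 CPM, Retn 0.394 CPM and Lep 0.330 CPM in any library. Cidec reached 5.90 CPM and Cfd 18.7 CPM, both in Control sham, where Adipoq and Plin1 also had their highest values. Outside Control sham, Cfd reached at most 6.42 CPM. Fabp4 ran from 45.6 to 83.9 CPM. The summed level of the 8 was 547 to 749 CPM in VE-PTPiKO IR and 565 to 934 CPM in VE-PTPiKO sham, and 761 to 879 CPM in Control IR and 751 to 832 CPM in Control sham. Most of it was Lpl, a lipase that is not specific to fat cells, with 464 to 668 CPM in VE-PTPiKO IR and 494 to 864 CPM in VE-PTPiKO sham, and 667 to 801 CPM in Control IR and 693 to 747 CPM in Control sham. Of 7 S3 markers, none was called in VE-PTPiKO and Slc22a13, an organic anion transporter, fell in Control (log2 fold change -0.55, adjusted p = 0.0297), a call lost without any of the 3 Control IR libraries or Control sham replicate 3 (largest adjusted p = 0.108).

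Aqp11 (chr7:97726378-97738247, minus strand) is the channel whose loss in mice gives cystic kidneys. It had 697, 744 and 745 normalized reads in VE-PTPiKO IR, against 1008, 807 and 962 in VE-PTPiKO sham. In Control IR it had 919, 808 and 717, against 973, 852 and 815 in Control sham. All VE-PTPiKO IR libraries lay below all VE-PTPiKO sham libraries, as for 10% of all genes in that direction, and the Control groups overlapped. The log2 fold change was -0.34 in VE-PTPiKO (SE 0.14, 95% interval -0.65 to -0.02, unadjusted p = 0.0381, adjusted p = 0.286) and -0.11 in Control (SE 0.13, adjusted p = 0.674). With the log2 share of Malat1 as a covariate, the VE-PTPiKO value was -0.33 with an adjusted p of 0.0499. That fit of all 12 libraries called 3236 genes in VE-PTPiKO. Without the covariate, 1019 were called in a fit of all 12 libraries and 445 in the main fit.

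Aqp2 (chr15:99579055-99584545, plus strand), the vasopressin-regulated channel, had 7561, 6094 and 4391 normalized reads in VE-PTPiKO IR, against 6937, 4878 and 7282 in VE-PTPiKO sham. It had 6477, 6440 and 5197 in Control IR, against 8233, 5951 and 9091 in Control sham. Within each genotype the groups overlapped, and in Control the overlap came from Control sham replicate 2. The log2 fold change was -0.09 in VE-PTPiKO (SE 0.23, 95% interval -0.61 to 0.43, adjusted p = 0.901) and -0.34 in Control (SE 0.16, 95% interval -0.70 to 0.01, adjusted p = 0.226). Without Control sham replicate 2, a library high in Malat1, the Control value was -0.52 and passed the threshold (adjusted p = 0.0252). It also passed with the Malat1 share as a covariate (-0.38, adjusted p = 0.0238). Of all genes, 2010 of 16231 were called without that library and 3048 with the covariate, against 1870 in the main fit.

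Aqp3, the basolateral water and glycerol channel of the same cells, had 2434, 2375 and 1465 normalized reads in VE-PTPiKO IR, against 2755, 2039 and 3061 in VE-PTPiKO sham. In Control IR it had 2550, 2471 and 1918, against 2936, 2402 and 3023 in Control sham. The groups overlapped in both genotypes. The log2 fold change was -0.34 in VE-PTPiKO (SE 0.23, adjusted p = 0.554) and -0.27 in Control (SE 0.14, 95% interval -0.57 to 0.03, adjusted p = 0.268).

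Aqp4 (chr18:15389393-15410982, minus strand), the other basolateral channel of principal cells, had 2291, 2127 and 742 normalized reads in VE-PTPiKO IR, against 1726, 1501 and 1167 in VE-PTPiKO sham. In Control IR it had 1097, 1014 and 1160, against 1085, 1006 and 1509 in Control sham. VE-PTPiKO IR held the 2 highest libraries and the lowest library of all 12. The lowest, replicate 3, is the library highest in Malat1, and its Aqp4 level was 0.336 of the mean of the other 2. The log2 fold change was 0.09 in VE-PTPiKO (SE 0.39, 95% interval -0.79 to 0.96, adjusted p = 0.946), and without replicate 3 it was 0.61 (adjusted p = 0.0411). In Control it was -0.11 (SE 0.15, adjusted p = 0.721). Without VE-PTPiKO IR replicate 3, 1925 of all genes were called in VE-PTPiKO, against 445 with it. The VE-PTPiKO interval of Aqp4 was the widest of the 7 genes in that comparison.

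Aqp6 (chr15:99601399-99605477, plus strand), the vesicle channel of intercalated cells, was the lowest of the 7, with 128, 156 and 145 normalized reads in VE-PTPiKO IR, against 156, 210 and 222 in VE-PTPiKO sham. In Control IR it had 216, 206 and 152, against 207, 164 and 183 in Control sham. The VE-PTPiKO groups did not overlap, although the highest IR library (155.6) and the lowest sham library (156.4) were nearly equal, and the Control groups did. The log2 fold change was -0.44 in VE-PTPiKO (SE 0.20, 95% interval -0.89 to 0.01, adjusted p = 0.337) and 0.04 in Control (SE 0.18, adjusted p = 0.920). No exon base of any of the 7 genes is shared with another annotated gene.

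**Figure D2:**
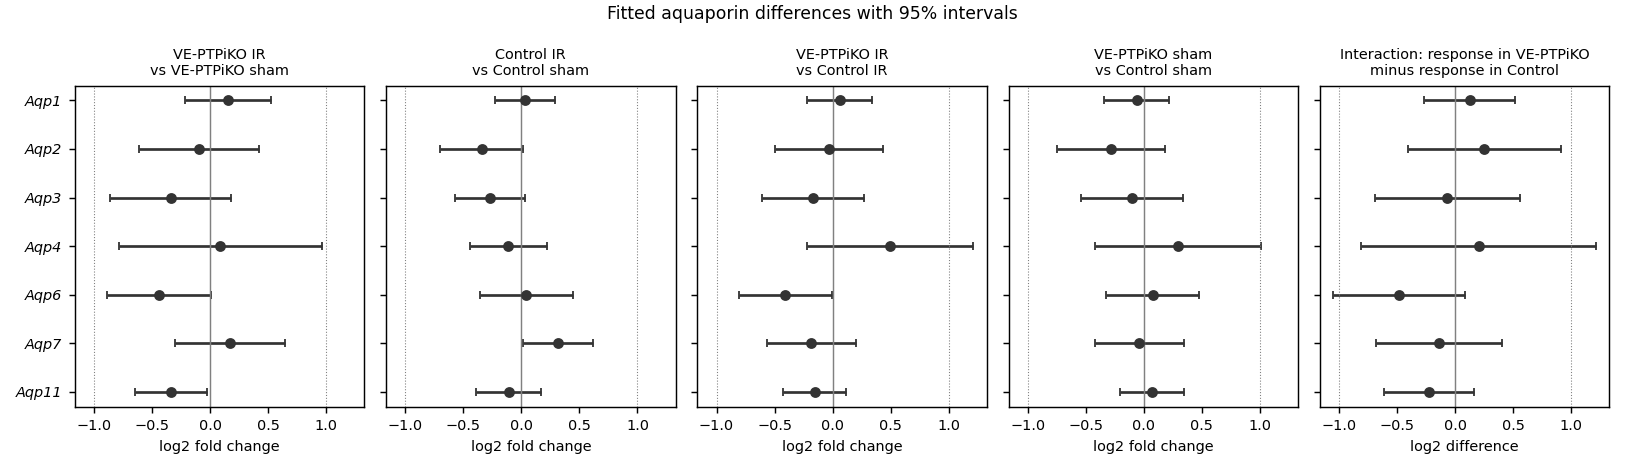
Fitted log2 fold changes (points) and 95% intervals (bars) of the 7 aquaporins for VE-PTPiKO IR against VE-PTPiKO sham, Control IR against Control sham, VE-PTPiKO IR against Control IR, VE-PTPiKO sham against Control sham, and the difference of the responses. Dotted lines mark log2 values of -1 and 1, and the widest interval is that of Aqp4 in each comparison but Control IR against Control sham, where it is that of Aqp6.

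The genotypes were compared in a fit of all 12 libraries. VE-PTPiKO IR against Control IR gave 0 of 7 aquaporins called, with 0% of all genes called. Aqp6 was lower there at an unadjusted p of 0.0469 (log2 fold change -0.41, SE 0.19, adjusted p = 1.00), and 4.34% of all genes had an unadjusted p under 0.05. Aqp4 had the largest positive value, 0.50 (SE 0.33, 95% interval -0.22 to 1.21). With single libraries left out it ran from 0.21 to 1.02, the highest without VE-PTPiKO IR replicate 3. It was called in 0 of 22 alternative settings. VE-PTPiKO sham against Control sham also gave 0 of 7 called and 0% of all genes, with log2 fold changes between -0.28 for Aqp2 and 0.29 for Aqp4. For the interaction, the response in VE-PTPiKO minus the response in Control, 0 of 7 and 0% of all genes were called. Its largest value was that of Aqp6 (-0.48, SE 0.26, 95% interval -1.05 to 0.09, unadjusted p = 0.0898, adjusted p = 0.999). No aquaporin had an unadjusted p under 0.05 for the interaction or between the sham groups, against 2.64% and 1.63% of all genes. Between genotypes the libraries of no aquaporin were free of overlap, after IR (9.16% of all genes) or after sham surgery (4.87%). edgeR and DESeq2 called 0 of 7 in these 3 comparisons. No different response of an aquaporin in VE-PTPiKO was detected, and the intervals held interaction values of up to 1.21 for Aqp4 and 0.91 for Aqp2.

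Within groups, several members were low in the same libraries. In each of the 4 groups, the library lowest in Aqp2 was also the lowest in Aqp3 and in Aqp1. Taken as log2 deviations from the group mean, 4 libraries were low in Aqp2 and Aqp3 (Aqp2 -0.42 to -0.21, Aqp3 -0.48 to -0.21) and 8 were high in both (Aqp2 0.05 to 0.37, Aqp3 0.08 to 0.26). The 4 low ones were Control IR replicate 3 and the 3 libraries highest in Malat1. Over all 12 libraries, Pearson's r of these deviations was 0.94 and Spearman's rho 0.82. The same values were not computed for pairs of genes outside the family, so whether they are particular to these channels was not tested. By exact permutation within groups, adjusted over 28 relations among the members and the Malat1 share, r gave p = 0.0216 (0.000772 unadjusted, the smallest that 1296 arrangements allow) and rho gave p = 0.184. Without VE-PTPiKO IR replicate 3 and VE-PTPiKO sham replicate 2, the libraries farthest from the median, r was 0.89. Over the 9 libraries not high in Malat1, r was 0.79 (exact permutation p = 0.0208, unadjusted, the smallest that 48 arrangements allow).

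In those 3 libraries the members were the lowest of their group in 16 of 21 cases. In VE-PTPiKO IR replicate 3 it was 5 of 7, all but Aqp6 and Aqp11, against 39.5% of all genes. In VE-PTPiKO sham replicate 2 it was also 5 of 7, all but Aqp4 and Aqp6, against 34.8% of all genes. In Control sham replicate 2 it was 6 of 7, all but Aqp11, against 36.3% of all genes. Relative to the mean of the other libraries of the group, Aqp2 stood at 0.643, 0.686 and 0.687 in these libraries, and Aqp1 at 0.857, 0.862 and 0.950. Against the log2 Malat1 share, taken in the same way over 12 libraries, Pearson's r was -0.77 for Aqp1 (exact permutation within groups, p = 0.0324 adjusted over the 28 relations) and Spearman's rho -0.88 (adjusted p = 0.0432). For Aqp2, Aqp3 and Aqp7, r was -0.90, -0.88 and -0.90 (exact permutation, adjusted p = 0.0972, 0.0972 and 0.0994), and for Aqp6 it was 0.05 (adjusted p = 0.876). Without VE-PTPiKO IR replicate 3 and Control sham replicate 2, the farthest from the median here, r was -0.77 for Aqp1, -0.80 for Aqp2, -0.78 for Aqp3 and -0.83 for Aqp7. Over the 9 other libraries, r was -0.91 for Aqp1 and -0.15 for Aqp2, with unadjusted exact permutation p of 0.104 to 0.979 over the 7 genes. What sets the Malat1 share was not tested.

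**Figure D3:**
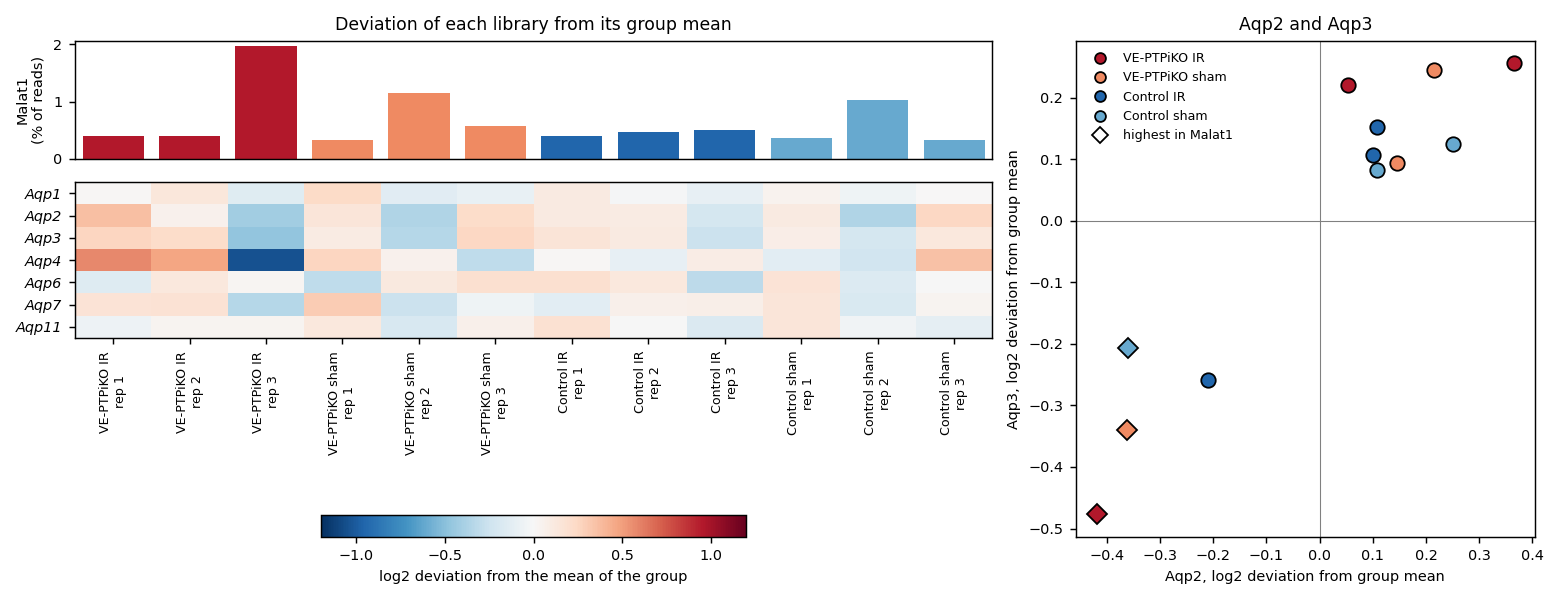
Left, the log2 deviation of each aquaporin from its group mean (colour, rows) in the 12 libraries (columns) under bars of the Malat1 share of reads in percent. Right, Aqp3 against Aqp2 on the same scale, with diamonds for the 3 libraries highest in Malat1, which lie at the low end of both axes with Control IR replicate 3.

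The ratio of Aqp2 to Aqp3 FPKM within a library does not depend on library scaling. It was 3.86, 3.19 and 3.73 in VE-PTPiKO IR, against 3.13, 2.98 and 2.96 in VE-PTPiKO sham, without overlap. It was 3.16, 3.24 and 3.37 in Control IR, against 3.49, 3.08 and 3.74 in Control sham, with overlap. This ratio was not tested, and ratios of other members were not taken. Among single genes, 20.6% were free of overlap in the VE-PTPiKO comparison, and neither Aqp2 nor Aqp3 was called there. The genes whose levels over the 12 libraries were most like those of a member were taken by Pearson correlation among 10411 genes. They were Nfs1 (0.970), Tmbim6 (0.965) and Gpd1 (0.951) for Aqp3, Slc10a2 (0.966), Erich4 (0.960) and Bax (0.959) for Aqp7, Cgrrf1 (0.958), Mfsd5 (0.951) and Uqcrc1 (0.950) for Aqp2, and Dnajb12 (0.947), Ywhaz (0.913) and Acsf3 (0.908) for Aqp11. For Aqp1 they were Tor2a (0.915), Tmx2 (0.911) and Mmaa (0.908), for Aqp4 Zfp729b (0.886), Dus2 (0.881) and Ptgr1 (0.879), and for Aqp6 Clip4 (0.880), Gnl3l (0.876) and Smad7 (0.866). These values include the low libraries named above and are descriptions.

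The start regions of Aqp2 and Aqp3 are shown because these are the apical and a basolateral channel of the same cell. They were lowest in the same library in every group, as was Aqp1. Each is the RefSeq window on GRCm38.p6 from 250 bases before the gene start to 50 bases from it (Aqp2 chr15:99578806-99579105, plus strand, and Aqp3 chr4:41098134-41098433, minus strand). Capitals mark the motifs found on either strand.
Aqp2: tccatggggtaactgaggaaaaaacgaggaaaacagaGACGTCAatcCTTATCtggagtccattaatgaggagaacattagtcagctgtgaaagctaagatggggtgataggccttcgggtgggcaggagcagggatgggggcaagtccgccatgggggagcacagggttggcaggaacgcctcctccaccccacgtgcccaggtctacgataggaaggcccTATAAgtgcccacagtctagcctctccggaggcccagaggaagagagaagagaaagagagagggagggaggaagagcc
Aqp3: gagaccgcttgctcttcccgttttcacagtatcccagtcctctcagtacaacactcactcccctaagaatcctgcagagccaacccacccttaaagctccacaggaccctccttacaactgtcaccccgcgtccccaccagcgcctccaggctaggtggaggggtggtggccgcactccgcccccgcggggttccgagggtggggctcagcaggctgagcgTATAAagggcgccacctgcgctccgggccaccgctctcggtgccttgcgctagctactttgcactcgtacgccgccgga
The Aqp2 window holds GACGTCA, with its first base at position -213. This is the reverse strand of TGACGTC, letters that resemble the cAMP response element. The Aqp2 window also holds CTTATC, the reverse strand of the GATA letters GATAAG, at -203, and TATAA at -28. The Aqp3 window holds TATAA at -29 and none of the other letters. Of 32851 promoter windows, 3.21% hold TGACGTC, 7.44% GATAAG, 24.9% TATAA and 7.81% the AP-1 letters TGANTCA, on either strand. Windows of 6 of the 7 members were searched, and none was used for Aqp4, so nothing is said of its motifs. The Aqp7 window holds GATAAG at -131. Apart from those of Aqp2, Aqp3 and Aqp7, no searched member window holds any of the 4 motifs. A match is a description of the letters and not of a bound site.

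Of the 5 other family members in the tables, Aqp8 was called in Control alone. Aqp8, a channel for water and ammonia, rose in Control IR with 19.2, 49.8 and 23.6 normalized reads, against 12.4, 4.37 and 7.45 in Control sham (log2 fold change 1.80, SE 0.46, adjusted p = 0.0289). It had 15.6, 19.6 and 8.72 in VE-PTPiKO IR, against 19.9, 10.3 and 7.25 in VE-PTPiKO sham, where the groups overlapped. The authors' deposited table also marked Aqp8 in Control (log2 fold change 1.25, adjusted p = 0.00136) and not in VE-PTPiKO (0.11, adjusted p = 0.891). The call rests on few reads and was lost without Control IR replicate 2 or 3 or Control sham replicate 2 or 3 (log2 1.40 to 2.13 over the single libraries left out, largest adjusted p = 0.159), and the difference between genotypes did not pass the interaction test. Aqp5, which lies between Aqp2 and Aqp6 in a 26.4 kb stretch of chromosome 15, had 1.88 to 27.2 normalized reads. Aqp9 stayed at 8.001 or fewer, Mip at 3.12 or fewer, and Aqp12 was at 0 in all 12 libraries.

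Of 21 genes of vasopressin receptor and cAMP signalling, 3 rose and 1 fell in Control, where 7.48% of all genes rose and 4.02% fell. Creb3l1, a transcription factor that binds cAMP response elements, averaged 81.3 ± 12.4 normalized reads in Control IR and 29.6 ± 3.63 in Control sham (log2 fold change 1.43, adjusted p = 0.00304). Pde4b, a phosphodiesterase that breaks down cAMP, averaged 720 ± 83.8 in Control IR and 318 ± 18.9 in Control sham (1.18, adjusted p = 0.000197). Adcy6, the adenylyl cyclase that makes cAMP in the collecting duct, fell to 1133 ± 125 in Control IR, against 1957 ± 257 in Control sham (-0.78, adjusted p = 0.00245). Ptger4, a prostaglandin receptor coupled to cAMP, rose by 0.73 on the log2 scale (adjusted p = 0.0383), a call lost without any of 5 of the 6 libraries. The list median was -0.01 on the log2 scale, the same as that of all genes.

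In VE-PTPiKO, 1 of 20 tested genes of this list rose and 0 fell, where 1.92% of all genes rose and 0.793% fell. Pde4b averaged 557 ± 99.5 normalized reads in VE-PTPiKO IR and 312 ± 10.4 in VE-PTPiKO sham (log2 fold change 0.82, adjusted p = 0.0366), and the call was lost without any of 5 of the 6 libraries. Creb3l1 gave 0.59 (adjusted p = 0.473) and Adcy6 gave -0.73 (adjusted p = 0.183). No gene of this list was called for the interaction, so a difference between the genotypes was not shown. Avpr2, the V2 receptor, could not be followed: it had 0 to 1.09 normalized reads in VE-PTPiKO IR, 0 to 1.88 in VE-PTPiKO sham, 0 to 1.07 in Control IR and 0 to 2.62 in Control sham. In the annotation, 81.3% of its exon bases are shared with Arhgap4 on the opposite strand, and the sources used here do not say whether the counting used strand.

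Of 23 genes of Aqp2 trafficking and turnover, 6 rose and 0 fell in Control, where 7.48% of all genes rose and 4.02% fell. The list median was 0.20 on the log2 scale, against -0.01 for all genes. Ezr, which encodes ezrin, a linker of membrane proteins to actin that binds Aqp2, averaged 17272 ± 1393 normalized reads in Control IR and 7410 ± 1152 in Control sham (log2 fold change 1.23, adjusted p = 0.000199). In VE-PTPiKO, where 2.71% of all genes were called, Ezr was the only gene of this list called (15315 ± 1010 in VE-PTPiKO IR and 9191 ± 612 in VE-PTPiKO sham, 0.74, adjusted p = 0.0228). That call was lost without any of 5 of the 6 libraries. The other Control values were 0.56 for Ndfip2, an adaptor of ubiquitin ligases, 0.52 for Hspa8, a chaperone that binds Aqp2, and 0.50 for Stx3, an apical syntaxin. Each of these 3 calls was lost without some single libraries, among them Control sham replicate 2 (largest adjusted p = 0.123, 0.406 and 0.103 over all settings). Without the 3 libraries highest in Malat1, the list had 4 genes higher in VE-PTPiKO, where 2.97% of all genes were higher, and 2 in Control, where 8.39% were.

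Of 16 transcription factors of the collecting duct and of osmotic control, 4 rose and 2 fell in Control, and 3 rose and 0 fell in VE-PTPiKO. Of all genes, 7.48% rose and 4.02% fell in Control, and 1.92% rose and 0.793% fell in VE-PTPiKO. The immediate early genes Fos and Jun rose by log2 fold changes of 2.37 and 1.05 in VE-PTPiKO and of 3.06 and 1.55 in Control. Elf3, an epithelial factor, averaged 517 ± 45.5 normalized reads in VE-PTPiKO IR and 248 ± 49.5 in VE-PTPiKO sham, and 630 ± 104 in Control IR and 285 ± 58.6 in Control sham, past the threshold in both. In VE-PTPiKO the call of Elf3 was lost without 4 of the 6 libraries left out singly and that of Jun without 3 of them, while Fos kept its call. Foxi1, the master factor of intercalated cells, averaged 318 ± 78.5 in VE-PTPiKO IR and 575 ± 84.5 in VE-PTPiKO sham (log2 fold change -0.87, adjusted p = 0.0749). It fell in Control, with 277 ± 26.8 in Control IR and 537 ± 72.3 in Control sham (-0.95, adjusted p = 0.00160). Gata3, a factor of principal cells, gave -0.61 in VE-PTPiKO (adjusted p = 0.252) and -0.43 in Control (adjusted p = 0.125).

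**Figure D4:**
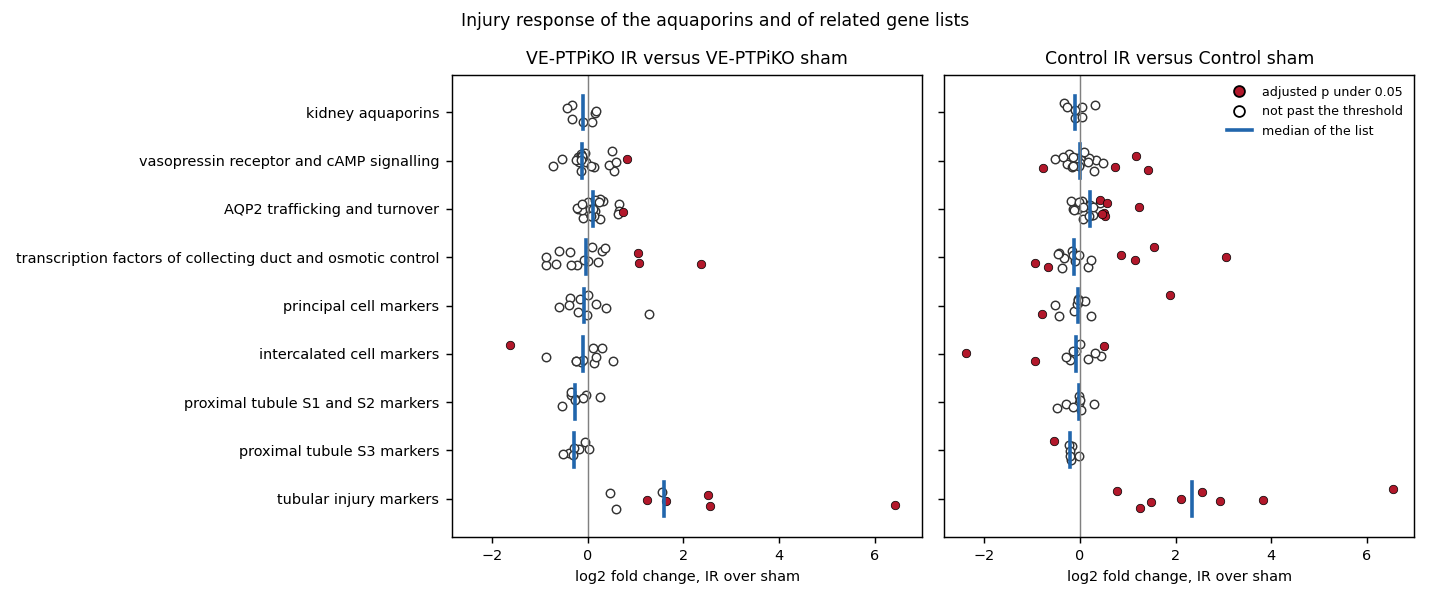
Log2 fold changes of IR over sham in VE-PTPiKO (left) and Control (right) for the 7 aquaporins and the genes of 8 lists (rows); filled points passed the adjusted p threshold of 0.05, open points did not, and the bar is the list median. The aquaporins lie between -0.44 and 0.17 in VE-PTPiKO and between -0.34 and 0.32 in Control. Their median absolute value is 0.17 and 0.11, against 0.24 for all genes in each comparison. The largest, Aqp6 in VE-PTPiKO and Aqp2 in Control, stand at percentiles 73.3 and 62.1 of the absolute values of all genes. The median SE of the aquaporins is also smaller, 0.210 in VE-PTPiKO and 0.138 in Control, against 0.223 and 0.175 for all genes. Tubular injury markers, listed as genes of injury, have medians of 1.59 and 2.34.

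Of the principal cell markers, 0 of 10 tested were called in VE-PTPiKO, and in Control 1 of 11 rose and 1 fell, where 2.71% and 11.5% of all genes were called in these comparisons. Krt19, a keratin, averaged 415 ± 78.1 normalized reads in Control IR and 114 ± 35.4 in Control sham. Kcnj1, the apical potassium channel ROMK, averaged 1764 ± 240 in Control IR and 3080 ± 422 in Control sham. Apart from Avpr2, no defining principal cell marker was near 0, and the summed level of the list was 1835 to 1954 CPM in VE-PTPiKO IR and 1797 to 1979 CPM in VE-PTPiKO sham, and 1813 to 1938 CPM in Control IR and 1919 to 1977 CPM in Control sham. These ranges lie close together, but they say little of single markers. In any library, Kcnj1 reached at most 192 CPM, Krt19 27.0 CPM, and the list genes Hsd11b2 and Fxyd4 83.1 and 37.6 CPM. Most of the sum therefore came from other genes of the list. The list median was -0.09 in VE-PTPiKO and -0.05 in Control on the log2 scale.

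The share of all genes was 1.92% higher and 0.793% lower in VE-PTPiKO, and 7.48% higher and 4.02% lower in Control. Of 11 intercalated cell markers, 0 rose and 1 fell in VE-PTPiKO, and 1 rose and 2 fell in Control. Hmx2, a homeobox factor, averaged 56.8 ± 19.2 normalized reads in VE-PTPiKO IR and 173 ± 19.5 in VE-PTPiKO sham (log2 fold change -1.63, adjusted p = 0.0129), and 29.5 ± 1.49 in Control IR and 160 ± 17.6 in Control sham (-2.39, adjusted p = 5.27e-05). The VE-PTPiKO call was lost without VE-PTPiKO IR replicate 2 or VE-PTPiKO sham replicate 2 or 3 (largest adjusted p = 0.0911). Foxi1, given above, also fell in Control. Car2 rose there (0.50, adjusted p = 0.0337), a call lost without any of the Control IR libraries or Control sham replicate 3. The list median was -0.09 in VE-PTPiKO and -0.07 in Control, against -0.01 for all genes in each. The summed level of the 11 markers was 641 to 980 CPM in VE-PTPiKO IR and 617 to 731 CPM in VE-PTPiKO sham, and 771 to 866 CPM in Control IR and 679 to 764 CPM in Control sham. Aqp6, a channel of these cells, passed no test in either genotype. Of 8 markers of the vasa recta and endothelium, 0 were called in VE-PTPiKO and 2 rose in Control, among them the urea transporter Slc14a1 (log2 fold change 0.77, adjusted p = 0.0151), a call lost without Control IR replicate 1 or 2. Of 7 thin limb and medulla markers, 2 rose and 0 fell in VE-PTPiKO, and 2 rose and 1 fell in Control. Of 8 adipocyte markers, 0 were called in VE-PTPiKO and 1 rose in Control.

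Of the tubular injury markers, 5 of 8 rose in VE-PTPiKO and 8 of 8 in Control, where 1.92% and 7.48% of all genes rose. These are the same libraries in which the 7 aquaporins passed no test. Lcn2, the secreted injury marker lipocalin, averaged 479 ± 177 normalized reads in VE-PTPiKO IR and 151 ± 34.2 in VE-PTPiKO sham (log2 fold change 1.63), and 854 ± 574 in Control IR and 99.9 ± 28.9 in Control sham (2.93). In VE-PTPiKO the calls of Lcn2 and Krt18 were lost without VE-PTPiKO sham replicate 2 or 3, that of Krt18 also without VE-PTPiKO IR replicate 1 or 2, and in Control that of Cldn7 without Control IR replicate 2. Without the libraries high in Malat1, 2.97% of all genes were higher and 2.27% lower in VE-PTPiKO. There 4 red blood cell markers, 1 principal cell marker, 1 intercalated cell marker and 1 thin limb marker were then higher, and 2 of the transcription factors and 1 gene of cAMP signalling lower. In Control, 8.39% of all genes were then higher and 4% lower, with 1 transcription factor, 0 thin limb markers and 1 endothelial marker lower and 0 of the other aquaporins higher.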

How the data were processed

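Whole-kidney RNA was extracted with Trizol and sequenced from TruSeq libraries, per the labels' protocols. The authors used FastQC, STAR, HTSeq and DESeq2 on mm10, as the submitters' processing notes list without versions. There is a table for each genotype, with 6 libraries. Its deposited signal values are read counts that the authors divided by 1 size factor per library, with group means beside them, as the values show. The deposited log2 fold changes, standard errors, p-values and Wald scores come from the authors' own comparisons, per the file headers. Whole reads were recovered for 100% of values within a tolerance of 0.02, and each library's depth is their sum. The series also lists 2 single-cell samples, which were not analysed here.

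IR was compared with sham inside each table by limma 3.58.1 (trend option, log2(value + 1), mean value 1 or more), with Benjamini-Hochberg adjustment over all of them and a threshold of 0.05. Genotype contrasts and the interaction used the recovered reads of all 12 libraries, scaled jointly (median of ratios, 14828 genes). Fold changes on this scale understate changes of low genes. FPKM used the length of the longest principal transcript of GENCODE M21. Alternatives were edgeR 4.0.16 quasi-likelihood and DESeq2 1.42.0 on the recovered reads, TMM scaling, other filters and pseudocounts, a replicate block, other models and left-out libraries. The test was checked on simulated counts. Same-numbered Control sham and VE-PTPiKO sham libraries had correlations of deviations from the group means of 0.268, 0.357 and 0.125. In no other comparison between groups did all 3 same-numbered pairs exceed 0.1. The labels give no pairing, and replicate 2 is a library high in Malat1 in both sham groups. Whether the numbers pair any libraries was not tested, and the replicate block served as an alternative alone. The members, the 13 gene lists and the rules were chosen with earlier results of these data known. Named are all members, Ptprb, Havcr1 and Lcn2, up to 4 called genes per list and comparison with the largest change, and the 3 genes most like each member among those with at least 5 CPM. Values named beside these that did not pass the test, and Avpr2, Gata3 and the other family members, were chosen after their values were seen.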

Additional observations from a re-analysis of the deposited data

How the results depend on the processing

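The 7 aquaporins were called in no comparison by TMM scaling, the filters, the pseudocounts, edgeR, DESeq2 or 1 model of all libraries. In Control IR against sham, 1 aquaporin (Aqp2) was called without the 3 libraries highest in Malat1, which here leaves out Control sham replicate 2, and 1 (Aqp2) with the Malat1 share as a covariate. Of all genes, 2010 and 3048 were called there. In VE-PTPiKO, 1 (Aqp11) was called with the covariate, as were 3236 of all genes. With single libraries left out, the count of aquaporins called ran from 0 to 1 in both (Aqp2 without Control sham replicate 2, Aqp4 without VE-PTPiKO IR replicate 3). Of all genes, 2010 were called without the former library and 1925 without the latter. The cause was not tested.

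Of all genes, 1870 were called in Control, against 3048 with the covariate and 862 to 2010 with single libraries left out. In VE-PTPiKO it was 445, against 1008 by DESeq2, 853 without the 3 libraries, 3236 with the covariate, 1019 in 1 model of all libraries and 126 to 1925 with single libraries left out. For the interaction it was 0, and 0 to 1 with single libraries left out. Between the sham groups it was 0, against 1 by DESeq2, 1 without the 3 libraries and 0 to 1 with single libraries left out. Between the IR groups it was 0, against 1 by DESeq2 and 0 to 1 with single libraries left out.

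Directions of uncalled values turned as follows. Without the 3 libraries, Aqp6 was -0.037 in Control, Aqp3 was 0.10 for the interaction, Aqp6 was -0.064 between the sham groups, and Aqp2 was 0.18 and Aqp3 0.067 between the IR groups. With the covariate, Aqp3 was 0.012 for the interaction, Aqp7 was 0.023 between the sham groups and Aqp2 was 0.14 between the IR groups, where Aqp2 was 0.011 by edgeR. Over single libraries left out, Control values ran from -0.021 to 0.081 for Aqp1, -0.23 to 0.065 for Aqp4 and -0.051 to 0.20 for Aqp6, and VE-PTPiKO values from -0.28 to 0.12 for Aqp2 and -0.20 to 0.61 for Aqp4. The interaction ran from -0.24 to 0.17 for Aqp3, -0.085 to 0.72 for Aqp4 and -0.27 to 0.026 for Aqp7. The sham contrast ran from -0.18 to 0.0057 for Aqp1, -0.22 to 0.067 for Aqp3, -0.021 to 0.23 for Aqp6 and -0.19 to 0.088 for Aqp7. The IR contrast ran from -0.0090 to 0.13 for Aqp1, -0.22 to 0.17 for Aqp2 and -0.30 to 0.064 for Aqp3.

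No label pairs libraries by their number. Between the sham groups, the replicate block left 0 genes and 0 aquaporins called, also in the sham libraries alone (chosen after seeing the data). Same-numbered libraries of the other groups had correlations of deviations from -0.34 to 0.41, a range that holds the values of the sham groups. With the replicate number as a block, 604 genes were called in VE-PTPiKO and 1805 in Control, and 0 aquaporins in every comparison. The 95% intervals of the aquaporins reached 1.21 on the log2 scale, and Avpr2, Aqp9, Mip and Aqp12 had too few reads to follow.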
